A study of Mus musculus with 24 samples.

Results

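Liver mRNA was compared in the night, at ZT16 and ZT20 (zeitgeber time, in hours after the lights go on), between Hlf-/-/Dbp-/-/Tef-/- mice (KO) and Hlf+/+/Dbp+/+/Tef+/+ mice (WT). The series sampled both genotypes at 6 times, every 4 h, with 2 libraries per group and 24 libraries in all. The 8 libraries labelled ZT16 or ZT20 were taken, of which 4 were KO and 4 were WT. Feeding was ad libitum and the mice were 12 to 16 weeks old in all 4 groups, so that the groups shared both and the genotype was the difference tested. In each group 1 library has an I in its column name and the other a P, and the text calls these libraries set I and set P. The labels explain neither letter, do not state the sex, and do not say which exons were removed or whether the deletions act in the whole body. Nothing in them ties the 2 libraries of a group to different animals, and the p-values therefore reflect just the spread among these 8 samples, part of which may be technical.

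Dbp, Tef and Hlf are the PAR bZip transcription factors, which share a proline- and acid-rich domain and bind D-box sequences. The circadian clock drives their transcription, and they pass its rhythm on to output genes. In liver they are known above all for control of drug and xenobiotic metabolism, through P450 enzymes, carboxylesterases and the nuclear receptor CAR.

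Totals in the 8 night libraries ran from 14807940 to 19141656 counts. Both WT set I libraries stood apart. Across genes they departed from the median library in step with GC content, with r of 0.609 at ZT16 and 0.648 at ZT20, against 0.0392 and 0.0538 in WT set P and −0.305 to −0.093 in the 4 KO libraries. They also counted long transcripts less, with r against log2 length of −0.249 and −0.274. Results are therefore given for set P as well. There r with GC content was −0.195 at ZT16 and −0.305 at ZT20 in KO, against 0.0392 and 0.0538 in WT. A smaller split between the genotypes thus remained in set P. Libraries of a group differed by more than counting noise, with a chi-square per degree of freedom of 21.9 and 19.0 in KO and 117 and 204 in WT, where 1 is the value for counting noise alone. The liver label was checked against hepatocyte genes. Alb, the albumin gene, had 47147 and 40497 CPM at ZT16 and 24047 and 40512 CPM at ZT20 in KO livers, against 55110.2 and 64826 CPM at ZT16 and 55093 and 65151 CPM at ZT20 in WT livers. CPM (counts scaled to a common library size) are given here with the set I library first and the set P library second at each time. All 10 hepatocyte markers were measured, whereas 9 of 10 pancreatic acinar and 7 of 8 skeletal muscle markers fell below the filter on low counts. In whole liver, fewer cells of a type and less RNA per cell cannot be told apart.

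The deleted genes were examined first. Hlf (ENSMUSG00000003949, mm10 chromosome 11, 90336536 to 90390895, minus strand, protein coding) had 2.24 and 2.67 CPM at ZT16 and 1.28 and 1.35 CPM at ZT20 in KO livers, against 84.1 and 88.8 CPM at ZT16 and 56.1 and 64.4 CPM at ZT20 in WT livers. All 4 KO libraries lay far below all 4 WT libraries, and both genotypes had less Hlf mRNA at ZT20 than at ZT16. The log2 change KO minus WT was −5.31 (SE 0.17, edgeR adjusted p = 4.49e-05). Tef (chromosome 15, 81802421 to 81826863) had 15.9 and 14.1 CPM at ZT16 and 7.14 and 7.11 CPM at ZT20 in KO livers, against 215 and 208 CPM at ZT16 and 162 and 98.4 CPM at ZT20 in WT livers, a log2 change of −4.0 (SE 0.21, edgeR adjusted p = 0.00024). Dbp (chromosome 7, 45705088 to 45710203) is known to peak late in the day and was low in the night in WT livers too. It had 0 and 0 counts at ZT16 and 0 and 1 counts at ZT20 in KO livers, against 35 and 49 counts at ZT16 and 36 and 12 counts at ZT20 in WT livers (edgeR adjusted p = 0.0142). The Dbp call was lost without any 1 of the 4 KO libraries (adjusted p up to 0.109). Counts per exon were not analysed here, so the parts of Hlf and Tef that still gave reads are not given.

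The main comparison asked which genes differed between genotypes in the night, with time as a factor. Of 14372 genes tested with edgeR's quasi-likelihood test, 67 (0.466%) were higher in KO livers and 119 (0.828%) were lower at an adjusted p under 0.05. The median log2 change over all genes was 0.0228. Of the 186 genes called, 183 had 4 KO libraries wholly beyond the 4 WT libraries, all 186 had the same sign at ZT16 and ZT20, and 185 had the same sign in set P. The calls came from these same libraries, so equal signs in parts of them were largely set by the selection. Over all genes tested, groups did not overlap for 14.2% with KO higher and for 15.7% with KO lower. At an unadjusted p under 0.05, 1307 genes (9.09%) were higher and 2707 (18.8%) lower, and DESeq2 called 287 higher (2%) and 369 lower (2.57%). The counts of list members given below for these rules are to be read against those shares. Set P alone, with 4 libraries and 1 residual degree of freedom, called 255 genes higher in KO (1.78%) and 285 lower (1.99%) of 14357 tested, and 157 of the 186 genes were among them. Without both WT set I libraries 486 genes were higher (3.3%) and 774 lower (5.26%), and the fit on all 24 libraries called 1221 higher (8.09%) and 2451 lower (16.2%) in the night. Set I alone called 3989 higher (27%) and 2771 lower (18.8%). With an offset for GC content and length, 185 genes were higher (1.29%) and 180 lower (1.25%), and 163 of the 186 remained called.

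Most of the 186 calls needed all 8 libraries. Only 35 were kept whichever 1 library was left out. Without KO_ZT16 set I, 66 of the 186 were kept, without KO_ZT16 set P 47, without KO_ZT20 set I 36 and without KO_ZT20 set P 47. Without WT_ZT16 set I 62 were kept, without WT_ZT16 set P 89, without WT_ZT20 set I 132 and without WT_ZT20 set P 143. A gene called with all 8 libraries is said below to have risen or fallen, and where the values of such a gene are given, a call lost without at least 1 library is stated.

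**Figure D1:**
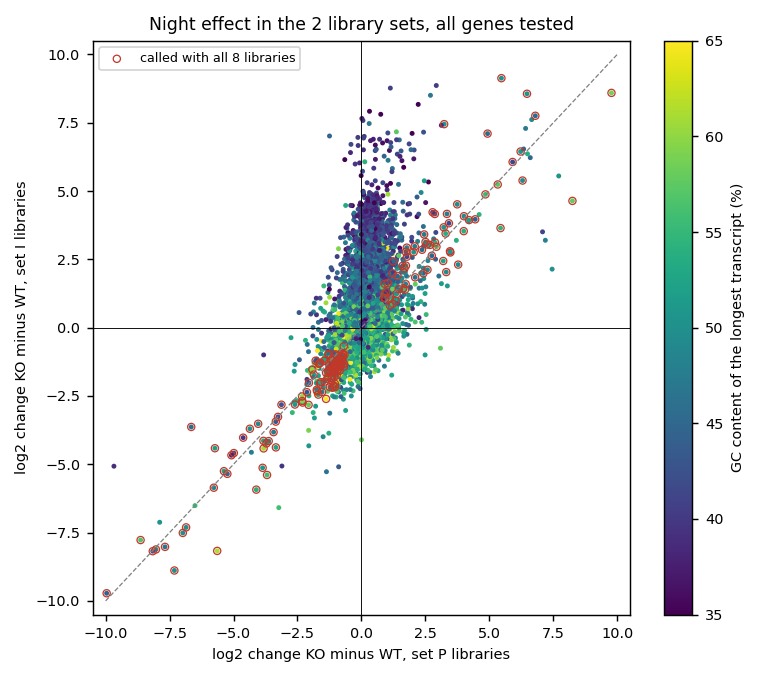
Log2 change KO minus WT in the night in set P (horizontal axis, 2 KO and 2 WT libraries) and in set I (vertical axis, 2 KO and 2 WT libraries) for each gene tested in both, coloured by the GC content of its longest transcript in percent, with the genes called from all 8 libraries circled in red and the dashed line marking equal change. The circled genes run along the line, while a column of genes of low GC content has a large positive change in set I and almost none in set P.

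The core clock was compared next, because it drives the PAR bZip genes and is known to run without them. Of 16 clock genes tested, Per3 alone was called, and it fell. Per3, a period gene with little effect on the rhythm itself, had 5.89 and 7.73 CPM at ZT16 and 2.93 and 2.91 CPM at ZT20 in KO livers, against 20.9 and 37.2 CPM at ZT16 and 8.52 and 6.79 CPM at ZT20 in WT livers. At each time both KO libraries lay below both WT libraries, and the level in either genotype was lower at ZT20, so that across times the KO and WT values overlapped. Its log2 change was −1.75 (SE 0.26, edgeR adjusted p = 0.0259) with all 8 libraries and −1.86 in set P (adjusted p = 0.0162). The call was lost without any 1 of the 4 KO libraries or without WT_ZT16 set I (adjusted p up to 0.141).

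The other 15 clock genes were not called with all 8 libraries. By edgeR, 0 of the 16 were higher and 6 lower at an unadjusted p under 0.05, against 9.09% and 18.8% of all genes. DESeq2 called 1 lower, and set P called 2 lower, Per3 and Cry1. Cry1, a repressor of CLOCK and BMAL1, had 49.3 and 37.2 CPM at ZT16 and 46.1 and 52.3 CPM at ZT20 in KO livers, against 78.8 and 55.9 CPM at ZT16 and 98.3 and 68.2 CPM at ZT20 in WT livers. Its KO libraries all lay below its WT libraries, with a log2 change of −0.70 (adjusted p = 0.116) and of −0.47 in set P, where it was called (edgeR adjusted p = 0.0499). Nfil3, the repressor that binds the same D-box sequences, had a log2 change of −0.64 (adjusted p = 0.166) and −0.32 in set P. Arntl, which encodes BMAL1, averaged 30.9 ± 7.39 CPM in KO livers and 32.7 ± 6.53 CPM in WT livers (SD, n = 4 each), and Per2 averaged 64.3 ± 20.8 and 73.2 ± 20.6 CPM. Neither gene was called. Each SD is over the libraries of both times, so it also holds the difference between ZT16 and ZT20. Npas2, a relative of Clock, had more counts at ZT20 than at ZT16 in both genotypes, with 1.04 and 0.171 CPM at ZT16 and 14 and 9.21 CPM at ZT20 in KO livers, against 1.79 and 0.700 CPM at ZT16 and 10.6 and 10.8 CPM at ZT20 in WT livers. The median log2 change of the 16 clock genes was −0.28, and −0.17 in set P. Of 17 clock output genes tested, none was called by edgeR with all 8 libraries (1 higher and 6 lower at an unadjusted p under 0.05; 1 lower by DESeq2). Set P called 4 lower, namely Lonrf3 (−1.59), the elongase gene Elovl3 (−1.06), Wee1, a kinase that holds back mitosis (−0.70), and Por (−0.52).

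Clock, Rora and Nr1d2 show how far the WT set I libraries departed. Clock, the partner of BMAL1, had 84.0 and 81.9 CPM at ZT16 and 113 and 123 CPM at ZT20 in KO livers, against 7.83 and 79.8 CPM at ZT16 and 3.91 and 88.9 CPM at ZT20 in WT livers. The 4 KO and both WT set P libraries lay between 79.8 and 123 CPM, and both WT set I libraries were far lower. Rora, an activator of Arntl, had 95.3 and 87.1 CPM at ZT16 and 110.4 and 119 CPM at ZT20 in KO livers, against 13.2 and 89.9 CPM at ZT16 and 7.47 and 116 CPM at ZT20 in WT livers. The set P log2 changes were 0.26 for Clock, 0.00 for Rora and −0.22 for Nr1d2, none of them called. The same libraries of low Clock counts enter every comparison with all 8 libraries below.

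**Figure D2:**
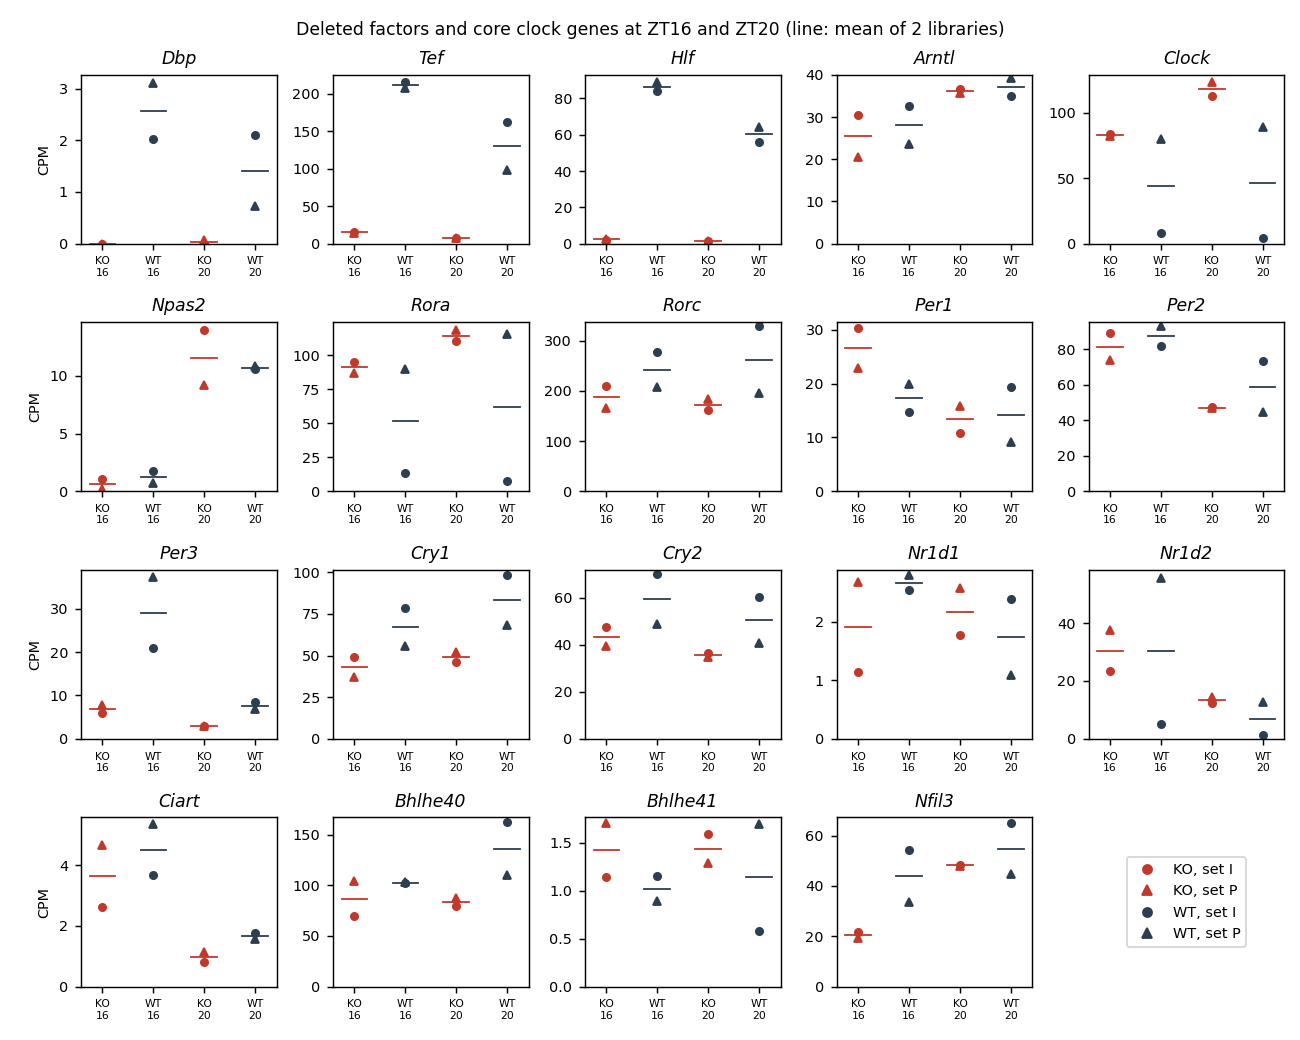
CPM of the 3 deleted factors and 16 core clock genes in the 8 night libraries, with KO (red) left of WT (dark) at ZT16 and then at ZT20, circles for set I, triangles for set P and a line at the mean of 2 libraries. Per3 sits lower in both KO libraries at both times, and Clock and Rora are far lower in the WT set I libraries than in the other 6.

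D-box letters were looked up in promoters, since PAR bZip factors bind there. The letters searched were TTATGTAA, its reverse complement TTACATAA, and TTACGTAA, which is its own reverse complement. NFIL3 is known to bind the same letters, and C/EBP sites resemble them. Windows of 300 bases, from 250 before to 50 after a RefSeq start, were found for 10537 of the genes tested. TTATGTAA was in 0.371% of all 13491 windows, TTACATAA in 0.259% and TTACGTAA in 0.163%. Of the 88 genes called lower with a window, 9 held at least 1 of these letter runs (10.2%), against 100 of the 10537 genes (0.949%) and 0 of 41 genes called higher. In set P they were in 11 of 213 genes called lower (5.16%) and in 1 of 171 called higher (0.585%). These shares were not tested. A match describes letters in a window and not a bound site.

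The promoters of 6 genes called lower, those with a named product and a D-box run before the start, are shown, 5′ to 3′ along the gene, with the D-box letters in capitals (RefSeq, build GRCm38.p6).
Per3, chr4:151044616-151044915, minus strand: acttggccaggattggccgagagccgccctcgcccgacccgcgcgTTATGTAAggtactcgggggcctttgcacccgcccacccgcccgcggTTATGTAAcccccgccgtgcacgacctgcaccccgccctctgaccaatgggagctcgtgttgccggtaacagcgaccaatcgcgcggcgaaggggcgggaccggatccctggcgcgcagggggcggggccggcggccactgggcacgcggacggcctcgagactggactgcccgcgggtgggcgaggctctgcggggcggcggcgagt
Ces1g, chr8:93337160-93337459, minus strand: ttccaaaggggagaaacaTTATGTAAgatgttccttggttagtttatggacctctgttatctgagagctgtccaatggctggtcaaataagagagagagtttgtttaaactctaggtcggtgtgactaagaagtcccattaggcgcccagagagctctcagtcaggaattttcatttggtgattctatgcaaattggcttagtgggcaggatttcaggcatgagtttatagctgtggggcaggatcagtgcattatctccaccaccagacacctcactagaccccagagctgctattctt
Ces1e, chr8:93229570-93229869, minus strand: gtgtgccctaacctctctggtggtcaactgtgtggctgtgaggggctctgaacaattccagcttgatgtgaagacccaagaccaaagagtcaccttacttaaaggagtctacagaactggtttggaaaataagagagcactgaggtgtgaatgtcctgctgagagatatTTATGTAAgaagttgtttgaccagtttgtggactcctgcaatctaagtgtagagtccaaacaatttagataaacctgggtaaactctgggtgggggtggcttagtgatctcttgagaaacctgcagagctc
Ak4, chr4:101419039-101419338, plus strand: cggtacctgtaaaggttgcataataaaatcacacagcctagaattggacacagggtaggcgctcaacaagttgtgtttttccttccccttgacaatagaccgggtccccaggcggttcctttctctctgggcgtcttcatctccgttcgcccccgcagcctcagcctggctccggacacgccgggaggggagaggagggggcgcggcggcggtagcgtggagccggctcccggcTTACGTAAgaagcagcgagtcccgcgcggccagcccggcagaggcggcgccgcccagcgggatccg
Prnp, chr2:131909678-131909977, plus strand: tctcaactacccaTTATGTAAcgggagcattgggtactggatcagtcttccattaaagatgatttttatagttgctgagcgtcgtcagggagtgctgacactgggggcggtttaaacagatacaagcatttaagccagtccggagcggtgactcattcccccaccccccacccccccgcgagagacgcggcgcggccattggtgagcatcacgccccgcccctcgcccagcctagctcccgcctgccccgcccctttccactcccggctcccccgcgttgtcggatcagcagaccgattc
Apol7a, chr15:77399061-77399360, minus strand: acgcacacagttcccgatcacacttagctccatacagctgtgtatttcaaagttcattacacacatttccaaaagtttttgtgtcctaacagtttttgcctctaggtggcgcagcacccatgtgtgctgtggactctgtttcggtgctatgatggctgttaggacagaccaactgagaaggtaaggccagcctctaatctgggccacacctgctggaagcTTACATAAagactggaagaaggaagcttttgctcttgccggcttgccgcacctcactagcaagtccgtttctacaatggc
The Per3 window holds TTATGTAA both at −205 and at −158, counted from the start to the first letter. In Ces1g the same letters begin at −232, in Ces1e at −81 and in Prnp at −237. Ak4 holds TTACGTAA at −16 in the window shown, and the same letters lie at −39 and −48 from other RefSeq starts of the gene. Apol7a holds TTACATAA at −30. The other called genes with such letters were Mmaa, which acts in vitamin B12 metabolism, and the gene models Gm19522 and 4931406C07Rik.

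Per3 is described above and both carboxylesterases below. Ak4, Prnp and Apol7a were chosen after their values were seen, and fell. Ak4, an adenylate kinase gene of mitochondria, had 67.5 and 69.5 CPM at ZT16 and 71.5 and 73.0 CPM at ZT20 in KO livers, against 154 and 159 CPM at ZT16 and 165 and 126 CPM at ZT20 in WT livers. The 4 KO libraries were nearly equal and all lay below the WT libraries, a log2 change of −1.10 (SE 0.13, edgeR adjusted p = 0.0118; set P −0.98). Prnp, which encodes the prion protein, had 17.9 and 24.1 CPM at ZT16 and 30.1 and 26.6 CPM at ZT20 in KO livers, against 62.5 and 55.2 CPM at ZT16 and 52.3 and 47.7 CPM at ZT20 in WT livers (−1.15, adjusted p = 0.0384; set P −1.01). Apol7a, of the apolipoprotein L family, averaged 82.0 ± 12.6 CPM in KO livers and 161 ± 13.4 CPM in WT livers (SD, n = 4 each; −0.98, adjusted p = 0.0324) and lies within 10 Mb of Tef. Neither group of libraries overlapped the other in any of the 3 genes. Each call was lost without at least 1 library (adjusted p up to 0.0843, 0.179 and 0.154).

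The 12 largest falls in the night by the naming rule held Hlf, Tef, 3 P450 genes of drug metabolism and 7 genes of other kinds. Nlrp12, a NOD-like receptor that restrains inflammatory signalling (chromosome 7, 3218784 to 3249740), had 0.109 and 0.455 CPM at ZT16 and 0.183 and 0.135 CPM at ZT20 in KO livers, against 56.4 and 49.4 CPM at ZT16 and 86.2 and 51.6 CPM at ZT20 in WT livers. It was close to 0 in every KO library, with a log2 change of −8.04 (SE 0.47, edgeR adjusted p = 0.000462) and −7.31 in set P. Cyp2c50 (chromosome 19, 40089688 to 40113950), an epoxygenase of the P450 family 2C, had 23.5 and 20.6 CPM at ZT16 and 23.8 and 16.3 CPM at ZT20 in KO livers, against 654 and 657 CPM at ZT16 and 536 and 597 CPM at ZT20 in WT livers. The WT libraries of both sets were alike, the KO mean was 29.0-fold lower, and the log2 change was −4.86 (SE 0.18, adjusted p = 6.03e-05; set P −5.08). Its neighbour Cyp2c54 had 23.5 and 15.6 CPM at ZT16 and 19.4 and 12.9 CPM at ZT20 in KO livers, against 552 and 507 CPM at ZT16 and 461 and 403 CPM at ZT20 in WT livers (−4.75, adjusted p = 0.000116). Cyp2b10, the classic target of CAR, had 3.0 and 2.96 CPM at ZT16 and 2.38 and 2.44 CPM at ZT20 in KO livers, against 84.9 and 46.7 CPM at ZT16 and 102 and 32.7 CPM at ZT20 in WT livers. Its WT libraries varied, with set I the higher at both times, yet all lay above the KO libraries (log2 change −4.63, SE 0.42, adjusted p = 0.00513; set P −3.86).

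Nat8, an acetyltransferase of cysteine conjugates (chromosome 6, 85830388 to 85832082), had 0.600 and 0.227 CPM at ZT16 and 0.305 and 0.203 CPM at ZT20 in KO livers, against 14.3 and 12.2 CPM at ZT16 and 5.37 and 11.7 CPM at ZT20 in WT livers (−4.99, adjusted p = 0.0025; set P −5.73). Caln1, a calcium-binding protein, had 0.818 and 0.739 CPM at ZT16 and 0.733 and 0.474 CPM at ZT20 in KO livers, against 9.33 and 10.7 CPM at ZT16 and 8.29 and 9.70 CPM at ZT20 in WT livers, with groups of narrow spread (−3.77, SE 0.20, adjusted p = 0.000276). The remaining genes among the 12 largest falls, besides Hlf and Tef, were Ppp1r1b (−4.17), Pcp4l1 (−4.0), Ttc39a (−3.91) and the carboxylesterase gene Ces1g (−3.68). Ppp1r1b, an inhibitor of protein phosphatase 1, lies within 10 Mb of Hlf. In set P, Ttc39a and Ces1g kept their direction without a call (−3.34, adjusted p = 0.0944, and −3.44, adjusted p = 0.246). All of these but Ttc39a and Ces1g kept their calls whichever library was left out, and the largest adjusted p of those 2 were 0.0523 and 0.13.

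**Figure D3:**
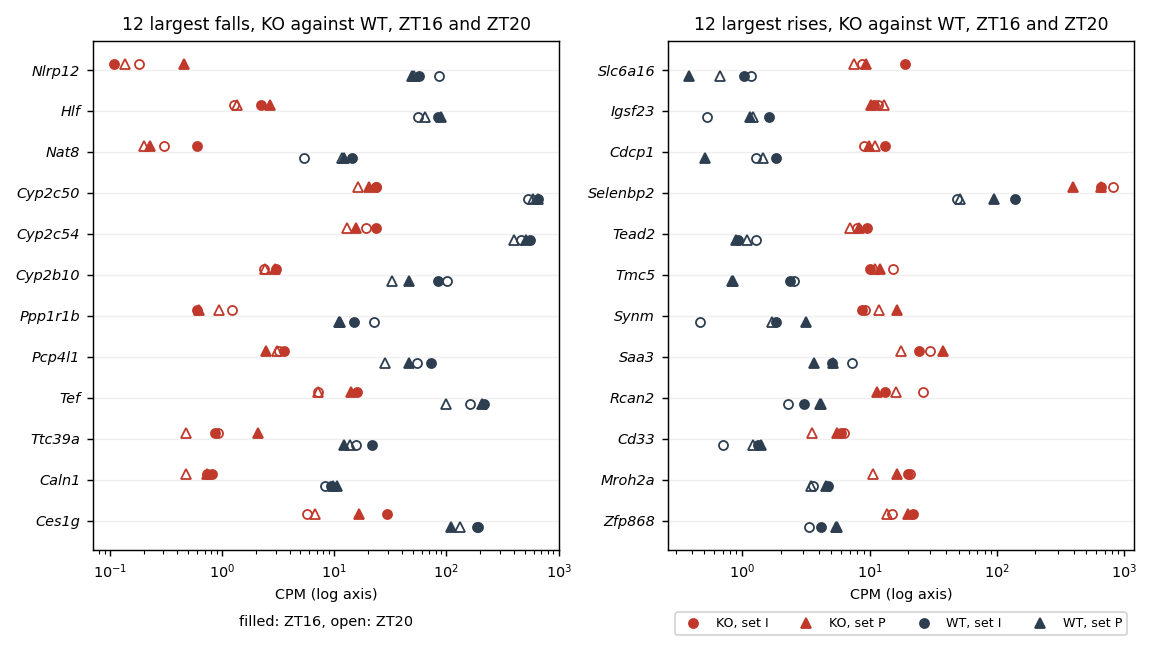
CPM on a log axis of the 12 largest falls (left) and the 12 largest rises (right) in the 8 night libraries, with KO in red above WT in dark for each gene, circles for set I, triangles for set P, filled for ZT16 and open for ZT20. KO and WT points are apart for every gene, and the points of the 2 sets lie together for most.

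Among 31 P450 genes of drug metabolism tested of 38 listed, 4 fell (Cyp2c50, Cyp2c54, Cyp2b10 and Cyp2c37) and 2 rose (Cyp2c38 and Cyp2c39). Cyp2c37 had 18.5 and 14.6 CPM at ZT16 and 10.4 and 9.01 CPM at ZT20 in KO livers, against 101 and 102 CPM at ZT16 and 92.4 and 103 CPM at ZT20 in WT livers (−2.97, edgeR adjusted p = 0.00112; set P −3.13). Cyp2c39 went the other way, with 358 and 335 CPM at ZT16 and 366 and 283 CPM at ZT20 in KO livers, against 117 and 188 CPM at ZT16 and 113 and 123 CPM at ZT20 in WT livers. All its KO libraries were above all its WT libraries (log2 change 1.32, SE 0.19, adjusted p = 0.0234; set P 1.03, adjusted p = 0.00229). Cyp2c38 averaged 127 ± 14.9 CPM in KO livers and 58.1 ± 11.6 CPM in WT livers (SD, n = 4 each; 1.14, adjusted p = 0.0231). Both rises lost their calls without at least 1 library (adjusted p up to 0.103 for Cyp2c39 and 0.112 for Cyp2c38) and with the offset for GC content and length (adjusted p = 0.147 for Cyp2c39 and 0.972 for Cyp2c38). Cyp2c genes are near-identical copies and the counting tool is not given in the sources used here, so how reads were shared among them is uncertain. Set P called 6 lower and 3 higher, adding Cyp2d9 (−0.69) and Cyp2d22 (−0.59) below and Cyp2a5, the coumarin hydroxylase, above (1.06). Both Cyp2d9 and Cyp2d22 lie within 10 Mb of Tef. The median of the list was −0.19, and −0.08 in set P.

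Carboxylesterases, which hydrolyse esters in drugs and lipids, held 3 of the 4 calls among 30 carboxylesterases and other phase I genes. All 4 fell. Ces1d, a lipid and drug hydrolase (chromosome 8, 93166068 to 93197838), had 625 and 453 CPM at ZT16 and 342 and 416 CPM at ZT20 in KO livers, against 2439 and 1686 CPM at ZT16 and 1978 and 1275 CPM at ZT20 in WT livers. All KO libraries were well below the lowest WT library (−2.02, SE 0.22, edgeR adjusted p = 0.00829; set P −1.75). Ces1g, with a promoter shown above, had 29.7 and 16.5 CPM at ZT16 and 5.74 and 6.70 CPM at ZT20 in KO livers, against 190.1 and 110.2 CPM at ZT16 and 189 and 132 CPM at ZT20 in WT livers, and its KO level was lower at ZT20 than at ZT16. Ces1e had 127 and 86.0 CPM at ZT16 and 95.5 and 103 CPM at ZT20 in KO livers, against 298 and 210.1 CPM at ZT16 and 275 and 224 CPM at ZT20 in WT livers (−1.29, adjusted p = 0.024; set P −1.20). Aldh1a1, which oxidises retinal to retinoic acid, averaged 702 ± 41.7 CPM in KO livers and 1552 ± 348 CPM in WT livers (SD, n = 4 each; −1.14, adjusted p = 0.0403; set P −1.28). Each of these calls was lost without at least 1 library (adjusted p up to 0.0559 for Ces1d and 0.19 for Aldh1a1). Set P also called 3 genes that all 8 libraries did not. The aldehyde oxidase genes Aox1 and Aox3 were higher in KO livers there (0.45, adjusted p = 0.0494, and 0.74, adjusted p = 0.0345), and Fmo2, a flavin monooxygenase gene, was lower (−0.88, adjusted p = 0.0138).

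Of other metabolic genes that fell, 3 were picked after their values were seen. Pdxk, the pyridoxal kinase that makes active vitamin B6, had 38.0 and 39.0 CPM at ZT16 and 39.6 and 42.0 CPM at ZT20 in KO livers, against 165 and 98.5 CPM at ZT16 and 186 and 81.0 CPM at ZT20 in WT livers. Its KO libraries were nearly equal, and its WT set I libraries were the highest (−1.74, SE 0.28, edgeR adjusted p = 0.0372; set P −1.13, adjusted p = 0.00154). Hsd11b1, which regenerates active glucocorticoid, averaged 382 ± 42.9 CPM in KO livers and 831 ± 165 CPM in WT livers (SD, n = 4 each; −1.12, adjusted p = 0.0359; set P −0.84). Cyp4v3, a fatty acid hydroxylase, averaged 274 ± 33.3 CPM in KO livers and 481 ± 26.7 CPM in WT livers (−0.82, adjusted p = 0.034; set P −0.66). The calls were lost without at least 1 library (adjusted p up to 0.165), and that of Hsd11b1 also with the GC and length offset (adjusted p = 0.0599).

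Conjugation, transport and the receptors above them gave few calls. Of 43 phase II genes 1 was called, Gsta3, a glutathione transferase, which fell. It had 1306 and 1113 CPM at ZT16 and 1174 and 1294 CPM at ZT20 in KO livers, against 2767 and 2336 CPM at ZT16 and 2642 and 2089 CPM at ZT20 in WT livers, with no overlap (−1.01, SE 0.14, edgeR adjusted p = 0.0231; set P −0.87, adjusted p = 0.00983). Set P called 2 further phase II genes lower, Gsta2 (−0.59) and Ugt2b1 (−0.76), and Gstt3 higher (0.77). Of 20 transporters 1 was called, Abcc6, an exporter of the ABCC family, which rose and lies within 10 Mb of Dbp. Abcc6 had 316 and 261 CPM at ZT16 and 283 and 242 CPM at ZT20 in KO livers, against 142 and 131 CPM at ZT16 and 141 and 106 CPM at ZT20 in WT livers (1.08, adjusted p = 0.0192; set P 1.10). In set P, Abcb1a, a drug efflux pump, was also higher in KO (1.58, adjusted p = 0.00753), as was Abcb4, the phosphatidylcholine transporter of bile (0.57), and Abcg2, the urate and drug exporter, was lower (−1.31). None of 26 nuclear receptors was called by edgeR with all 8 libraries. At an unadjusted p under 0.05, 2 of them were higher and 9 lower, and DESeq2 called 1 in each direction. Nr1i3, which encodes CAR, had 39.7 and 26.4 CPM at ZT16 and 30.2 and 29.9 CPM at ZT20 in KO livers, against 68.7 and 64.1 CPM at ZT16 and 61.8 and 36.5 CPM at ZT20 in WT livers. At each time both WT libraries were the higher, though the lowest WT library was below the highest KO library, and the log2 change of −0.86 did not pass (adjusted p = 0.105; set P −0.78, adjusted p = 0.285). Por, the electron donor of P450 enzymes, had 356 and 366 CPM at ZT16 and 167 and 184 CPM at ZT20 in KO livers, against 526 and 540.1 CPM at ZT16 and 489 and 259 CPM at ZT20 in WT livers, and was called in set P but not with all 8 libraries (−0.52, edgeR adjusted p = 0.0384). The Gsta3 and Abcc6 calls were lost without at least 1 library (adjusted p up to 0.13 and 0.106), and that of Gsta3 with the GC and length offset (adjusted p = 0.0653).

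Most of the largest rises were of genes with few counts in WT livers. Slc6a16, an orphan member of the SLC6 transporter family (chromosome 7, 45241085 to 45273367), had 19.1 and 9.44 CPM at ZT16 and 8.73 and 7.58 CPM at ZT20 in KO livers, against 1.04 and 0.382 CPM at ZT16 and 1.17 and 0.667 CPM at ZT20 in WT livers (3.71, SE 0.45, edgeR adjusted p = 0.0123; set P 4.0). Igsf23, of the immunoglobulin superfamily, had 10.9 and 10.2 CPM at ZT16 and 11.7 and 12.9 CPM at ZT20 in KO livers, against 1.61 and 1.15 CPM at ZT16 and 0.525 and 1.21 CPM at ZT20 in WT livers (3.35, adjusted p = 0.00513; set P 3.29). In both genes the lowest KO library was several times the highest WT library. Tead2, a TEAD transcription factor that works with YAP, averaged 8.18 ± 1.09 CPM in KO livers and 1.05 ± 0.181 CPM in WT livers (SD, n = 4 each; 2.96, adjusted p = 0.00146; set P 2.93). Cdcp1, a membrane protein that engages Src kinases, averaged 10.8 ± 1.73 CPM in KO livers and 1.27 ± 0.560 CPM in WT livers (3.07, adjusted p = 0.0118; set P 3.46). Slc6a16, Tead2, Saa3 and Cd33 lie within 10 Mb of Dbp.

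Selenbp2, a selenium-binding protein gene, rose, with 653 and 393 CPM at ZT16 and 817 and 656 CPM at ZT20 in KO livers, against 139 and 94.1 CPM at ZT16 and 48.8 and 51.1 CPM at ZT20 in WT livers. All KO libraries lay above all WT libraries (3.02, SE 0.42, edgeR adjusted p = 0.0253), but set P alone did not call it (2.88, adjusted p = 0.308). Rcan2, an inhibitor of calcineurin, had 13.1 and 11.5 CPM at ZT16 and 26.1 and 16.1 CPM at ZT20 in KO livers, against 3.05 and 4.07 CPM at ZT16 and 2.28 and 4.18 CPM at ZT20 in WT livers (2.25, adjusted p = 0.0224; set P 1.73). Tmc5, of the transmembrane channel-like family, averaged 12.1 ± 2.17 CPM in KO livers and 1.65 ± 0.943 CPM in WT livers (2.86, adjusted p = 0.0285; set P 3.78). The other 5 of the 12 largest rises were Synm, which encodes an intermediate filament protein (2.77), Saa3 (2.38), the myeloid lectin gene Cd33 (2.21), Mroh2a (2.05) and the zinc finger gene Zfp868 (1.91). In set P they were 2.56, 2.58, 1.78, 1.74 and 1.61, with Saa3 not called (adjusted p = 0.192). Of the 12 rises, Igsf23, Tead2 and Mroh2a kept their calls whichever library was left out, and the others lost them without at least 1 (adjusted p up to 0.179, for Synm). The Cd33 call was also lost with the GC and length offset (adjusted p = 0.133), and those of Selenbp2 and Saa3 without both WT set I libraries.

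A few genes with almost no counts in WT livers in the night had clear counts in KO livers and were singled out after their values were seen. Acpp, an acid phosphatase gene, had 3.87 and 8.93 CPM at ZT16 and 11.8 and 19.8 CPM at ZT20 in KO livers, against 0 and 0.0636 CPM at ZT16 and 0.0583 and 0.182 CPM at ZT20 in WT livers (edgeR adjusted p = 0.0025). Chrm3, a muscarinic acetylcholine receptor, had 2.84 and 3.13 CPM at ZT16 and 5.31 and 2.98 CPM at ZT20 in KO livers, against 0 and 0 CPM at ZT16 and 0 and 0.121 CPM at ZT20 in WT livers (adjusted p = 0.00591). Cox6b2, the testis form of a cytochrome oxidase subunit (chromosome 7, 4751792 to 4753094), had 9.88 and 7.39 CPM at ZT16 and 6.41 and 5.28 CPM at ZT20 in KO livers, against 0.115 and 0.382 CPM at ZT16 and 0.408 and 0.0606 CPM at ZT20 in WT livers (4.85, adjusted p = 0.00591). All 3 were called in set P too, and kept their calls whichever library was left out. They were chosen for their values in these same libraries, so that agreement was largely set by the choice. Outside the night Cox6b2 was not low in all WT livers. At ZT24 it had 4.51 and 1.65 CPM in WT livers, against 3.79 and 3.73 CPM in KO livers (scaled over all 24 libraries).

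Lipid and bile acid genes gave 2 calls with all 8 libraries. Of 47 genes of fatty acid oxidation or under PPAR-alpha 1 was called, Vnn1, a pantetheinase, which rose. It had 42.0 and 41.3 CPM at ZT16 and 25.3 and 30.1 CPM at ZT20 in KO livers, against 17.3 and 14.6 CPM at ZT16 and 15.1 and 13.6 CPM at ZT20 in WT livers, without overlap (1.16, SE 0.15, edgeR adjusted p = 0.0166; set P 1.33; with the GC and length offset, adjusted p = 0.0903). Of the 47, 6 were higher and 15 lower at an unadjusted p under 0.05, and 12 had all KO libraries below all WT libraries. Set P called 4 lower, Cyp4a12b (−0.92), Acot1 (−0.84), Acsl1 (−0.62) and Bdh1 (−0.59), and Fabp2 (0.55) and Abcd2 (1.32) higher besides Vnn1. Abcd2 lies within 10 Mb of Tef. Of 15 bile acid genes 1 was called, Slc27a5, the bile acid CoA ligase, which fell. Slc27a5 had 630.4 and 577 CPM at ZT16 and 557 and 615 CPM at ZT20 in KO livers, against 1778 and 1138 CPM at ZT16 and 2140.4 and 1212 CPM at ZT20 in WT livers (−1.39, adjusted p = 0.0372; set P −0.97, adjusted p = 0.00237), and set P also called Cyp39a1, an oxysterol hydroxylase gene, lower (−0.90). Cyp7a1, the rate-limiting enzyme of bile acid synthesis, had 678 and 745 CPM at ZT16 and 452 and 514 CPM at ZT20 in KO livers, against 148 and 426 CPM at ZT16 and 23.6 and 149 CPM at ZT20 in WT livers. Every KO library lay above every WT library, but the WT libraries ranged widely and the change did not pass (1.90, adjusted p = 0.138; set P 1.31, adjusted p = 0.135). The calls of Vnn1 and Slc27a5 were lost without at least 1 library (adjusted p up to 0.0959 and 0.165).

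None of 28 genes of cholesterol synthesis and uptake was called by edgeR with all 8 libraries. At an unadjusted p under 0.05 there were 3 higher and 4 lower, and DESeq2 called 1 in each direction. Set P called 9 higher and none lower. The direction of the list depended on the libraries, with a median of −0.06 from all 8, 0.07 with the GC and length offset and 0.36 in set P. Cyp51, the lanosterol demethylase, had 200.2 and 359.9 CPM at ZT16 and 378 and 435 CPM at ZT20 in KO livers, against 239 and 175 CPM at ZT16 and 193 and 274 CPM at ZT20 in WT livers (set P 0.86, edgeR adjusted p = 0.00685). The KO_ZT16 set I library was the lowest of the KO libraries. It was so for Hmgcs1, the HMG-CoA synthase, too, which had 221 and 867 CPM at ZT16 and 1010.0 and 986 CPM at ZT20 in KO livers, against 117 and 132 CPM at ZT16 and 51.9 and 416 CPM at ZT20 in WT livers (2.11, adjusted p = 0.134; set P 1.99, adjusted p = 0.321). The other set P calls were Mvd (0.77), Nsdhl (0.69), Lss (0.68), Hsd17b7 (0.60), Fdps (0.59), Msmo1 (0.56), Sqle (0.55) and the sterol carrier Stard4 (0.51). None of 31 genes of fatty acid and triglyceride synthesis was called by edgeR with all 8 libraries (2 higher and 8 lower at an unadjusted p under 0.05; 1 higher and 2 lower by DESeq2). Me1, the malic enzyme that supplies NADPH, had 225 and 302 CPM at ZT16 and 173 and 229 CPM at ZT20 in KO livers, against 110.2 and 134 CPM at ZT16 and 110.1 and 122 CPM at ZT20 in WT livers (0.95, adjusted p = 0.0522), and was called in set P (1.05, adjusted p = 0.00152).

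Glycolysis, stress and NRF2 lists held 1 or no call each. Pgk1, the glycolytic phosphoglycerate kinase, was the 1 of 34 glucose and glycogen genes called, with 72.4 and 78.6 CPM at ZT16 and 62.8 and 83.9 CPM at ZT20 in KO livers, against 207 and 181 CPM at ZT16 and 244 and 183 CPM at ZT20 in WT livers. All KO libraries lay below the lowest WT library (−1.45, SE 0.16, edgeR adjusted p = 0.00889; set P −1.16). Osgin1, a stress-induced gene, was the 1 of 24 NRF2 targets called, with 70.7 and 99.6 CPM at ZT16 and 161 and 134 CPM at ZT20 in KO livers, against 286 and 161 CPM at ZT16 and 661 and 356 CPM at ZT20 in WT livers. Each KO library lay below both WT libraries of its time, but the highest KO library, at ZT20, reached the lowest WT library, at ZT16 (−1.59, adjusted p = 0.0483; set P −1.04, adjusted p = 0.0478; with the replicate block, adjusted p = 0.0516). Both falls lost their calls without at least 1 library (adjusted p up to 0.0523 and 0.189). In set P the glycogen branching enzyme gene Gbe1 was called higher (0.85), and the NRF2 targets Gsta2 and Gclc (−0.53) lower and Me1 higher. None of 32 unfolded protein genes, 24 heat shock genes or 22 immediate early genes was called by edgeR, and set P called 0, 1 and 0 of them. At an unadjusted p under 0.05 they held 13, 5 and 1 genes, and DESeq2 called 1, 0 and 1.

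Amino acid breakdown and plasma carriers held no call with all 8 libraries, and 12 in set P, all lower. Of 50 genes of amino acid breakdown and the urea cycle edgeR called none, though 28 were lower and 0 higher at an unadjusted p under 0.05, against 18.8% of all genes lower, and DESeq2 called 7 lower. Their median log2 change was −0.50, against 0.0228 for all genes, and −0.26 in set P, against 0.0127. Set P called 6 lower. Oat, ornithine aminotransferase, had 471 and 359 CPM at ZT16 and 279 and 357 CPM at ZT20 in KO livers, against 622 and 626 CPM at ZT16 and 674 and 641 CPM at ZT20 in WT livers, where the WT libraries of both sets were alike (−0.82, adjusted p = 0.0708; set P −0.82, edgeR adjusted p = 0.00521). Agxt, the glyoxylate aminotransferase, was at −0.81 in set P, Amt and Gldc of the glycine cleavage system at −0.73 and −0.60, Ivd of leucine breakdown at −0.75 and Bhmt, which remethylates homocysteine, at −0.65. Of 23 genes of albumin, apolipoproteins and carriers edgeR called none (16 lower at an unadjusted p under 0.05, 7 lower by DESeq2), and set P called 6 lower. Apoa4, an apolipoprotein of lipid transport, had 8.18 and 12.6 CPM at ZT16 and 14.7 and 16.0 CPM at ZT20 in KO livers, against 25.9 and 31.2 CPM at ZT16 and 111 and 41.2 CPM at ZT20 in WT livers (−1.88, adjusted p = 0.0613; set P −1.32, adjusted p = 0.000457). Alb was at −0.67 in set P (edgeR adjusted p = 0.0371).

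Hrg, the histidine-rich plasma glycoprotein, was on none of the lists, was named after its values were seen, and fell, with 499 and 459.9 CPM at ZT16 and 563 and 545 CPM at ZT20 in KO livers, against 1804 and 1365 CPM at ZT16 and 2319 and 1366 CPM at ZT20 in WT livers (−1.73, SE 0.19, edgeR adjusted p = 0.00919; set P −1.44; up to 0.065 without 1 library). Among 31 acute phase and iron genes, Saa3 rose and Hamp fell. Hamp, which encodes the iron hormone hepcidin, had 117 and 46.7 CPM at ZT16 and 81.4 and 54.2 CPM at ZT20 in KO livers, against 889 and 484 CPM at ZT16 and 512 and 194 CPM at ZT20 in WT livers (−2.72, adjusted p = 0.0499), and set P did not call it (−2.60, adjusted p = 0.31) but called its copy Hamp2 lower (−1.49). Of Saa1 and Saa2, the serum amyloid A genes of the acute phase, all KO libraries lay above all WT libraries, but the KO libraries ranged widely and the changes did not pass. Saa2 had 116 and 1267 CPM at ZT16 and 1367 and 612 CPM at ZT20 in KO livers, against 21.3 and 17.8 CPM at ZT16 and 23.3 and 69.3 CPM at ZT20 in WT livers (4.78, adjusted p = 0.0522; set P 4.60, adjusted p = 0.431). The Saa genes are near-identical copies, and the sharing of reads among them is uncertain. The calls of Saa3 and Hamp were lost without at least 1 library (adjusted p up to 0.0943 and 0.177), and that of Hamp without both WT set I libraries too. None of 31 coagulation and complement genes was called by edgeR, in set P either (1 higher and 10 lower at an unadjusted p under 0.05; 1 lower by DESeq2).

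Genes known to differ between male and female liver were examined, since several are also drug-metabolism genes. Of 28 female-biased genes 17 passed the filter, and 2 rose. Slc22a27, an organic anion transporter, had 6.6 and 4.61 CPM at ZT16 and 1.95 and 1.63 CPM at ZT20 in KO livers, against 0.230 and 0.382 CPM at ZT16 and 0.292 and 0.182 CPM at ZT20 in WT livers (3.60, SE 0.37, edgeR adjusted p = 0.00652; set P 3.42). Slc22a29, of the same family, averaged 2.07 ± 0.622 CPM in KO livers and 0.216 ± 0.202 CPM in WT livers (SD, n = 4 each; 3.28, adjusted p = 0.0257, up to 0.126 without 1 library). Set P called 7 higher and 1 lower. Cyp17a1, the steroid hydroxylase, had 27.6 and 38.7 CPM at ZT16 and 35.1 and 26.7 CPM at ZT20 in KO livers, against 11 and 15.1 CPM at ZT16 and 20.8 and 8.61 CPM at ZT20 in WT livers (set P 1.5, adjusted p = 0.000363). Sult3a1, a sulfotransferase, had 0.655 and 1.36 CPM at ZT16 and 0.122 and 0.203 CPM at ZT20 in KO livers, against 0 in all 4 WT libraries (adjusted p = 0.088). A gene could pass the filter through the KO libraries alone, so the 17 do not stand for all 28. Their summed level ran from 351 to 1410 CPM in KO livers and from 353 to 490.0 CPM in WT livers.

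Of 25 male-biased genes tested, Selenbp2 rose and none fell. At an unadjusted p under 0.05 there were 6 lower and 1 higher, and set P called 6 lower and 2 higher. Elovl3, a fatty acid elongase, had 90.9 and 91.8 CPM at ZT16 and 218 and 413 CPM at ZT20 in KO livers, against 436 and 221 CPM at ZT16 and 494 and 760.3 CPM at ZT20 in WT livers (−1.42, adjusted p = 0.101; set P −1.06, edgeR adjusted p = 0.00237). Cyp4a12b was at −0.92 in set P, Cyp2u1 at −0.69, Ugt2b1 at −0.76 and the major urinary protein gene Mup21 at −1.56. Mup20, a close copy, was higher in set P (1.08, adjusted p = 0.0018), and reads of Mup genes may be shared among copies. The list's median was −0.38 with 8 libraries and −0.20 in set P.

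In protein synthesis and respiration, the 8 libraries and set P gave medians well apart. Of 81 cytosolic ribosomal protein genes, 46 had all KO libraries below all WT libraries, against 15.7% of all genes, yet Rpl3 alone was called lower. Their median log2 change was −0.50 with 8 libraries, −0.20 in set P and −0.12 with the GC and length offset. Of 77 respiratory chain and ATP synthase genes, 56 had all KO libraries below all WT libraries and none was called lower, while Cox6b2 rose, with medians of −0.58, −0.25 and −0.26 in the same order. The share of all genes whose KO libraries all lay lower was, again, 15.7%. Set P called 2 of the 77 lower, the complex I genes Ndufs7 (−0.59) and Ndufc2 (−0.56). Of 41 proteasome genes and 30 ribosome biogenesis genes edgeR called none, in set P either (18 and 15 lower and none higher at an unadjusted p under 0.05, against 18.8% of all genes lower; none by DESeq2).

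**Figure D4:**
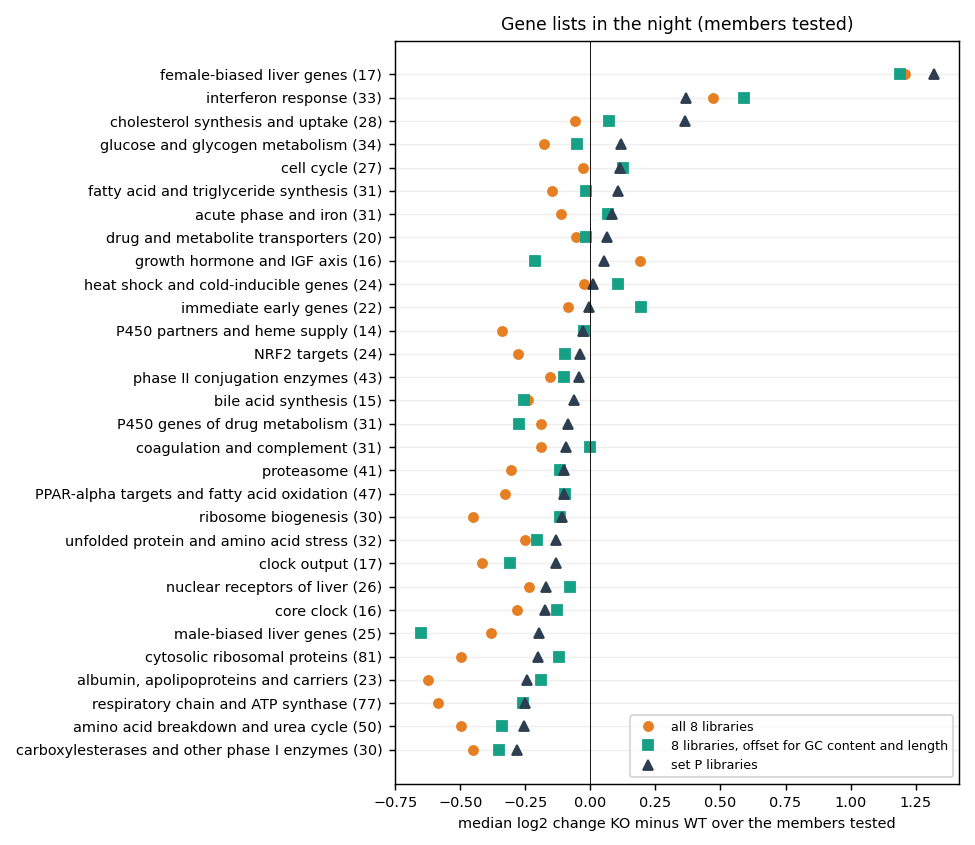
Median log2 change KO minus WT in the night over the tested members of each gene list (number in brackets), from all 8 libraries (circles), from 8 libraries with an offset for GC content and length (squares) and from set P (triangles). Most lists lie left of 0 with all 8 libraries and move towards 0 in set P, and cholesterol synthesis lies at 0.36 in set P alone. The female-biased list, of which 17 of 28 members passed the filter, lies above 1 in all 3. A member could pass through the KO libraries alone, and the 3 settings share libraries.

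Markers of liver cell types were compared between genotypes. Of the 10 hepatocyte markers edgeR called none with 8 libraries (7 lower at an unadjusted p under 0.05, none by DESeq2), and set P called Alb lower. Together they summed to 49400 to 73500 CPM in KO livers and 91900 to 97100 CPM in WT livers. Alb alone held 24047 to 47147 CPM of this in KO livers and 55093 to 65151 CPM in WT livers. All KO libraries lay below all WT libraries for 5 of the 10, against 15.7% of all genes. Of 12 Kupffer cell and macrophage markers edgeR called none, in set P either, and 2 were higher at an unadjusted p under 0.05 with 1 called by DESeq2. Marco, a scavenger receptor, had 32.5 and 74.2 CPM at ZT16 and 30.6 and 29.0 CPM at ZT20 in KO livers, against 11.7 and 14.9 CPM at ZT16 and 9.98 and 14.3 CPM at ZT20 in WT livers (1.65, adjusted p = 0.0551). The 12 markers summed to 567 to 847 CPM in KO livers and 529 to 639 CPM in WT livers. Stellate cell and fibroblast markers summed to 400 to 474 CPM in KO livers and 212 to 424 CPM in WT livers, and sinusoidal endothelium markers to 461 to 546 and 428 to 491 CPM. In both lists edgeR called none, in set P either, and none had an unadjusted p under 0.05 with 8 libraries. The median log2 change of the stellate cell list was −0.16 with 8 libraries and 0.06 in set P. The B cell list, which includes Cd74 and the MHC class II genes H2-Aa, H2-Ab1 and H2-Eb1, summed to 182 to 476 CPM in KO livers and 419 to 621 CPM in WT livers. Its sum is therefore not a measure of B cells alone. By edgeR none of its members was called, in set P either (1 higher and 4 lower at an unadjusted p under 0.05). T and NK cell markers summed to 5.13 to 15.9 CPM in KO livers and 5.92 to 9.10 CPM in WT livers. Of 8 periportal and 10 pericentral hepatocyte markers edgeR called none with all 8 libraries (2 periportal lower, and 1 pericentral higher and 4 lower, at an unadjusted p under 0.05). DESeq2 called 1 pericentral marker in each direction, as did set P, with Oat lower and Slc1a2, a glutamate transporter gene, higher (0.71). Of 33 interferon response genes edgeR called none (5 higher at an unadjusted p under 0.05, 2 by DESeq2), with a median of 0.47, and 0.37 in set P. Of 5 red blood cell markers edgeR called none with all 8 libraries (1 lower at an unadjusted p under 0.05; 1 lower by DESeq2), and set P called Alas2, the erythroid heme enzyme, lower (−0.49). Of 6 adipocyte markers 3 passed the filter and edgeR called none (1 lower at an unadjusted p under 0.05; none by DESeq2), while set P called Fabp4 higher (0.90). The WT_ZT16 set I library held the most Cfd, an adipocyte gene, at 5.06 CPM, and WT_ZT16 set P had 1.02 CPM, against 0.0611 to 0.797 CPM in the 4 KO libraries and 0 and 0.0602 CPM at ZT20 in WT. The Cfd values are scaled over all 24 libraries. Cela1, an elastase gene on the acinar list, was the 1 marker called by edgeR with all 8 libraries. It had 7.80 and 7.34 CPM at ZT16 and 13.2 and 13.8 CPM at ZT20 in KO livers, against 29.7 and 20.9 CPM at ZT16 and 42.4 and 25.5 CPM at ZT20 in WT livers (−1.53, edgeR adjusted p = 0.0231; set P −1.17; up to 0.13 without 1 library), while the other 9 acinar markers were below the filter. The part of cell mixture in the results was not tested.

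The calls were also set out by their distance from the deleted genes. Within 10 Mb of Dbp, 8 of 137 other genes tested rose (5.84%) and 13 fell (9.49%), against 0.466% and 0.828% of all genes. In set P, 8 of them were higher and 20 lower. Around Tef 8 of 267 genes fell and 0 rose, and around Hlf 1 of 207 fell and 0 rose. Besides those already named, the genes called near Dbp included Ftl1, the ferritin light chain gene, Klk1b22 and Klk1b4 of the kallikrein family, Car11, which lies next to Dbp, and Htatip2. Car11, a carbonic anhydrase-related gene, had 0.600 and 0.227 CPM at ZT16 and 0.549 and 0.609 CPM at ZT20 in KO livers, against 2.71 and 2.61 CPM at ZT16 and 3.97 and 1.58 CPM at ZT20 in WT livers (−2.45, edgeR adjusted p = 0.0379; set P −2.32; up to 0.156 without 1 library). Among those near Tef were Bik (−2.45, adjusted p up to 0.0786 without 1 library), a gene of cell death, and Rpl3. The labels give no strain. The part of chromosome position in these calls was not tested.

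Processed gene copies carried several of the largest changes. Ftl2-ps, a copy of the ferritin light chain (chromosome 4, 125504288 to 125504839), had 208 and 178 CPM at ZT16 and 183 and 159 CPM at ZT20 in KO livers, against 0.576 and 0.127 CPM at ZT16 and 0.408 and 0.242 CPM at ZT20 in WT livers (9.02, SE 0.40, adjusted p = 0.000116). Ftl1 itself had 79.7 and 72.7 CPM at ZT16 and 75.6 and 78.6 CPM at ZT20 in KO livers, against 452 and 329.6 CPM at ZT16 and 646 and 309 CPM at ZT20 in WT livers (−2.49, SE 0.25, edgeR adjusted p = 0.00649; set P −2.07). Rpl3-ps1 averaged 34.3 ± 2.05 CPM in KO livers and 2.04 ± 0.323 CPM in WT livers, and Rpl3 139 ± 13.7 and 289.6 ± 49.7 CPM (SD, n = 4 each; 4.07 and −1.07, adjusted p = 7.27e-05 and 0.0303). The Ftl1 and Rpl3 calls were lost without at least 1 library (adjusted p up to 0.159 for Rpl3 and 0.0523 for Ftl1). In each pair the copy was higher in KO and the parent gene lower. Parents and copies share sequence, so these values are uncertain for the parent genes.

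Taken singly, ZT16 called 6 genes higher in KO (0.0417%) and 9 lower (0.0626%), and ZT20 6 higher (0.0417%) and 8 lower (0.0557%). Cyp2c50, Cyp2c54, Cyp2c37, Nlrp12, Caln1, Hlf, Tef and Tead2, besides gene models and processed copies, were called at both. Ces1g and Selenbp2 were called at ZT20 (−4.69 and 3.88, against −2.70 and 2.16 at ZT16), and Ppp1r1b and Slc22a27 at ZT16. The difference between the times was tested by itself. It was called for 0 genes of 14372 by edgeR (316 with an unadjusted p under 0.05), so no gene is shown to have a genotype effect that differs between ZT16 and ZT20. Among genes above the level set for naming, the smallest p went to Hapln4, a hyaluronan and proteoglycan link protein gene, and Ugt1a9, a glucuronosyltransferase gene. Ugt1a9 had 31.3 and 39.3 CPM at ZT16 and 95.7 and 104 CPM at ZT20 in KO livers, against 215 and 209.7 CPM at ZT16 and 106 and 50.9 CPM at ZT20 in WT livers (ZT20 minus ZT16 2.94 on the log2 scale, unadjusted p = 0.000928). Ugt1a genes share exons, so its reads may include those of other members. In KO livers it was the lower at ZT16, and in WT livers the higher. Hapln4 followed the same course, with 1.15 and 1.42 CPM at ZT16 and 7.57 and 6.84 CPM at ZT20 in KO livers, against 15.5 and 17.0 CPM at ZT16 and 5.72 and 12.6 CPM at ZT20 in WT livers. Irgm2, an interferon-induced GTPase gene, had the opposite sign (−2.10), as did Nid2 (−1.75) and Slc15a3 (−1.53), and Klf11 the same sign as Ugt1a9 (1.25).

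The night effect was last set against that of the other 4 times in a fit of all 24 libraries. The difference was called for 0 of 15090 genes by edgeR in either direction (1611 with an unadjusted p under 0.05, smallest adjusted p = 0.0617), and for 0 by edgeR in set P. Of the 186 night calls, 184 had the same sign at the other times and 163 were called there. The matching shares of all genes were not counted. WT set I libraries of the other times also followed GC content, with r of 0.581 at ZT04, 0.309 at ZT08, 0.267 at ZT12 and 0.211 at ZT24. The part of that trend in the agreement was not tested. Without WT_ZT20 set P, however, 829 genes were called higher and 882 lower, which left ZT20 with the WT set I library alone. No gene is shown to respond in the night only.

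The genes with the smallest p for that difference are given as values. Cyp2c39 averaged 336 ± 34.4 CPM in the night and 205 ± 54.5 CPM at the other times in KO livers, against 140.3 ± 31.3 and 316 ± 179 CPM in WT livers (SD, n = 4 and 8; difference of log2 changes 1.83, SE 0.30, adjusted p = 0.114; set P 1.19). Its change was 1.30 in the night in this fit and −0.53 at the other times. Elovl3 averaged 205 ± 156 and 292 ± 278 CPM in KO livers, against 498 ± 219.8 and 218 ± 212 CPM in WT livers (−1.71, adjusted p = 0.114; set P −1.25, adjusted p = 0.0511). Gstp1, a glutathione transferase, averaged 689.9 ± 253 and 1043 ± 143 CPM in KO livers, against 1671 ± 444 and 912 ± 277 CPM in WT livers (−1.49, adjusted p = 0.137; set P −0.76). For Elovl3 and Gstp1 the KO mean was lower in the night than at the other times and the WT mean was higher, with overlap between the night and the other times in both. Mt1, a metallothionein gene, averaged 26.1 ± 13.9 and 22.6 ± 17.9 CPM in KO livers, against 12.3 ± 12.8 and 116 ± 97.6 CPM in WT livers (3.72, adjusted p = 0.114). Rcan2 averaged 16.7 ± 6.56 and 6.48 ± 1.48 CPM in KO livers, against 3.51 ± 0.774 and 4.33 ± 2.12 CPM in WT livers (1.57, adjusted p = 0.114). Adamts7, a metalloprotease gene, averaged 12.0 ± 2.35 and 16.6 ± 6.77 CPM in KO livers, against 30.3 ± 4.07 and 20.2 ± 9.08 CPM in WT livers (−1.05, adjusted p = 0.114). The other 6 by the same rule were the cation channel gene Trpm2 (0.73; set P 0.61), Slc22a26 (5.10; set P 3.50) and Lgals4 (1.32; set P 0.75) with a positive difference, and Tmc5, Cela1 (−1.37; set P −0.80) and Slc25a37 (−0.69; set P −0.57) with a negative one. Tmc5 averaged 12.1 ± 2.18 and 12.0 ± 3.83 CPM in KO livers, against 1.77 ± 1.08 and 0.513 ± 1.01 CPM in WT livers. Its KO levels were alike, several WT libraries of the other times were at 0, and the difference of −4.39 shrank to −1.69 in set P.

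**Figure D5:**
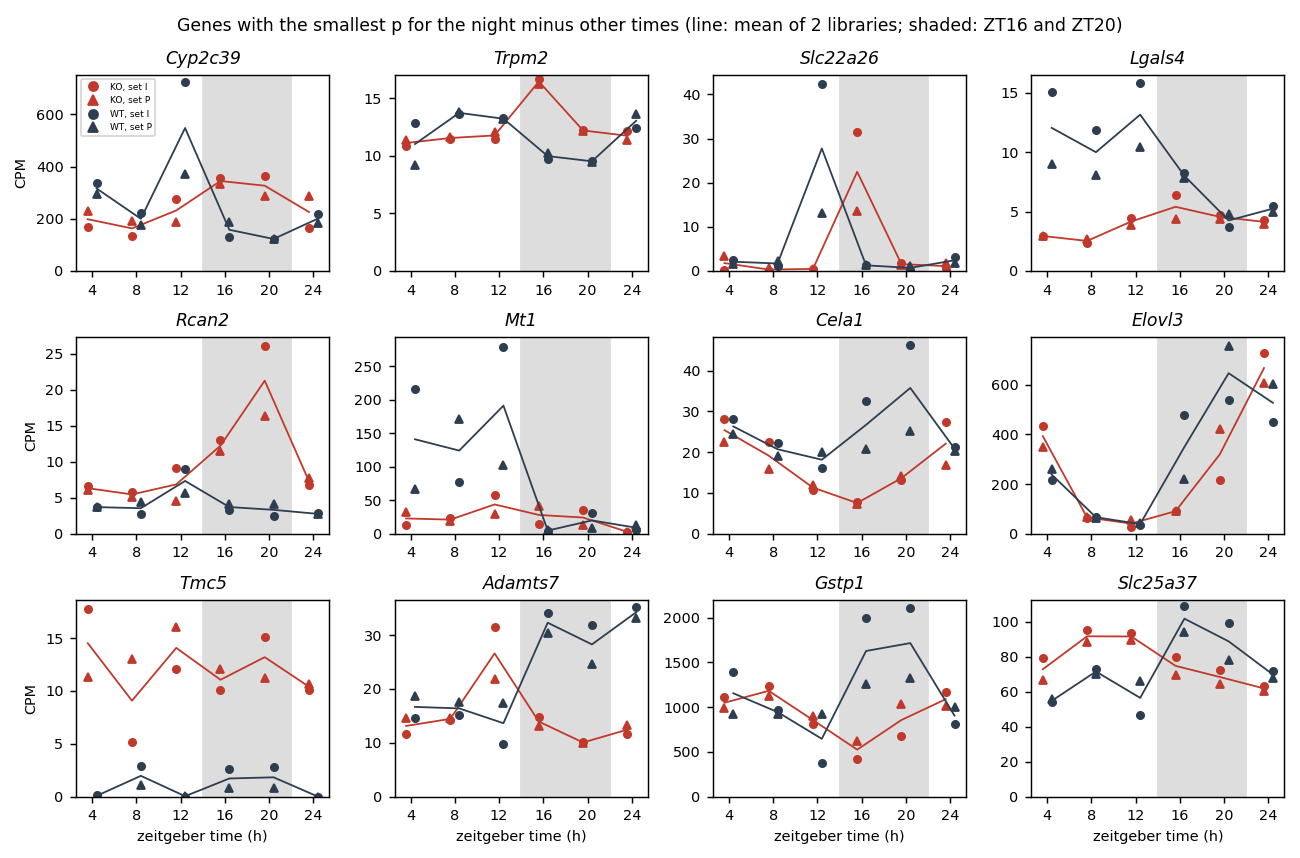
CPM against zeitgeber time in hours for the 12 genes with the smallest p for the night minus the other times, with KO in red and WT in dark, circles for set I, triangles for set P, lines at the mean of 2 libraries and the night shaded. Cyp2c39 and Rcan2 are higher in KO at ZT16 and ZT20, and Elovl3 and Gstp1 lower there. At the other times Cyp2c39 is lower in KO at ZT04 and ZT12, and Rcan2 stays higher in KO at ZT04, ZT08 and ZT24.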

How the data were processed

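Per the labels' protocols, liver mRNA was turned into stranded libraries by an Illumina TruSeq kit. The deposited table holds counts for 54532 genes in 24 libraries, as whole numbers that the authors did not normalize, as its values show. The submitters' processing notes name STAR 2.4.0i and the mm10 build. Neither the counting tool nor the annotation is named there, and the strand setting is not given in the sources used here. Symbols came from GENCODE M21 for 54495 of the genes.

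Libraries were grouped by the labelled genotype and time, and the letter I or P in the deposited column names gave the replicate. The 8 libraries of ZT16 and ZT20 were fitted with edgeR 4.0.16 in R 4.3.3, with time and genotype as factors, TMM scaling and the quasi-likelihood test. The filterByExpr step, at a minimum count of 10, left 14372 genes, and p-values were adjusted over all of them by the Benjamini-Hochberg method, with a threshold of 0.05. The SE is the size of the log2 change divided by the square root of F. Values are CPM over TMM-scaled library sizes, and folds are ratios of group means. The scaling was over the 8 night libraries, and over all 24 for Cfd and wherever values of other times are given. Effects at ZT16 and ZT20, and their difference, came from a fit of group means, and the night minus the other times from a fit of 12 group means on 24 libraries. Set P alone was fitted the same way. The alternatives were DESeq2 1.42.0, RLE scaling, no filter, a replicate block, leaving out each library, and an offset for GC content and length by natural splines, which 14363 (99.94%) of the genes allowed. The labels mention no molecular identifiers, so reads may not be independent molecules.

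On simulated counts of the same libraries for 13690 genes, the night fit called 93 of 100 genes changed 4-fold, 10 of 100 changed 2-fold and 3 of 13490 unchanged genes. The simulated counts held no trend with GC content or length and no difference between ZT16 and ZT20. These shares therefore need not hold for the real libraries.

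The genes named were the deleted genes, the clock list, the 12 largest rises and 12 largest falls among called genes whose groups did not overlap and whose mean log2 CPM reached 1, up to 4 members of each list with the smallest p, the 6 positive and 6 negative differences of smallest p between the night and other times, and the 3 of each sign between ZT20 and ZT16. Gene models and pseudogenes were passed over. Genes outside this rule, among them all list members given for set P only, the genes near deleted genes and the processed copies, were chosen after their values were seen. The comparison, the gene lists and the rule were chosen with earlier results of these data known.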

Additional observations from a re-analysis of the deposited data

How the results depend on the processing

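Against 67 genes called higher and 119 lower in KO livers in the night, DESeq2 called 287 and 369, no filter 149 and 257, the fit on 24 libraries 1221 and 2451, and the fit without both WT set I libraries 486 and 774. Set P alone called 255 and 285, set I alone 3989 and 2771, the GC and length offset 185 and 180, and that offset with the replicate block 192 and 214. RLE scaling gave 73 and 105. Leaving out 1 library gave 19 to 85 higher and 18 to 133 lower. Any KO library or either WT_ZT16 library moved both counts by more than 1.5 times. The 15 calls at ZT16 and 14 at ZT20 became 85 and 76 with no filter and 45 and 45 with the offset, and 0 to 27 and 0 to 23 when 1 library was left out. For the night minus other times, with 0 calls in each direction, no filter gave 169 higher and 93 lower, leaving out the 6 WT set I libraries 3 and 2, and the offset 1 lower. Leaving out 1 library gave 0 to 829 higher and 0 to 882 lower, the largest without WT_ZT20 set P. The difference between ZT20 and ZT16 stayed at 0 calls under every alternative run. The 540 set P calls became 1456 with no filter. The cause of these shifts was not tested. No named gene that was called changed sign under any of these. Of all 186 called genes, 185 had the same sign in set P and 185 in set I. A gene not tested in a set would be missing from its count. Of 205 named genes, 198 kept their side of the threshold with the replicate block.

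With the replicate block, the night calls were 70 higher and 115 lower, with 18 at ZT16 and 17 at ZT20. Same-lettered libraries of KO and WT deviated together with r of 0.184, 0.123, 0.231, 0.0705, 0.0541 and 0.0842 at ZT04 to ZT24, not all over 0.1, so the letters are treated as names and not as pairs.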
